A study of Mus musculus with 6 samples.

Results

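The S100 genes encode small calcium-binding proteins, each with a pair of EF-hand loops, that mostly act as dimers. Binding of calcium opens a surface through which an S100 dimer docks onto target proteins such as annexins, and some members are also released from cells and act on receptors. Several members mark epithelia, whereas S100a8 and S100a9 together form calprotectin, the main calcium-binding protein of neutrophils, which is also induced in inflamed epithelium. The genes described here are 9 members, S100a14, S100a1, S100a6, S100a8, S100a9, S100a10, S100a11, S100a13 and S100a16, taken by symbol from the 17256 genes of the deposited table. The choice was made with differences between the groups already known, so the differences below are a description of these libraries, and the counts of members that changed support nothing further.

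RNA came from the epithelium of the antrum, the last part of the stomach before the duodenum, in C57BL/6 mice. The tested libraries, PEEPA-P5 1, 2 and 3, came from mice that had 20 weeks of MNNG, an alkylating carcinogen, and a drug written as Ranitine, and then PEEPA-P5 by gavage for 2 weeks. The 3 vehicle libraries came from mice with the same induction and then vehicle for 2 weeks. Both groups thus carry the gastritis model, and mice without it are not analysed here. The compound is known only by its code name. Neither the number of animals behind the libraries nor their age is labelled, so the errors and p-values below describe variation from library to library, and this could be technical.

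Total counts per library ran from 16388844 to 16903545. The libraries differed in RNA of several tissue components. The antral hormone gene Gast, the gastrin gene of G cells, was at 7032, 4990 and 199 TPM, a measure of transcript abundance per length, in PEEPA-P5 1, 2 and 3, and at 9492, 6822 and 609.6 TPM in vehicle 1, 2 and 3, so it was low in both libraries numbered 3. A list of 7 products of oxyntic (acid-secreting) glands summed to between 2150 and 9919 TPM with PEEPA-P5 and between 10192 and 74850 TPM with vehicle, with vehicle 3 highest. Each PEEPA-P5 library was thus below each vehicle library, so sampling of tissue and treatment cannot be told apart here. Most of the sum was Pgc, the pepsinogen C gene, so it mainly follows 1 gene. Atp4a, a proton pump gene, was at 1.51, 120 and 0.07 TPM in PEEPA-P5 1, 2 and 3. In vehicle 1, 2 and 3 it was at 115, 567 and 892 TPM. The Atp4a groups overlapped, whereas those of Atp4b, another proton pump gene, were apart. A list of 8 fibroblast markers summed to 65.3, 102 and 6.92 TPM in PEEPA-P5 1, 2 and 3, against 106, 140 and 50.5 TPM in vehicle 1, 2 and 3, and its highest gene was Dcn, which encodes the matrix protein decorin. Library PEEPA-P5 3 thus stood apart as the one lowest in stromal RNA. In such bulk tissue, fewer cells of a type and less RNA per cell cannot be told apart.

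All 9 genes lie on mouse chromosome 3, by the RefSeq annotation of GRCm38.p6. Among the protein-coding genes of the table, S100a1, S100a13, S100a14 and S100a16 follow one another directly. S100a6 comes further along, then the adjacent S100a8 and S100a9. After 12 more genes of the table come the neighbours S100a11 and S100a10. S100a1 and S100a13 run in opposite directions and their annotated spans overlap by 98 bases at their starts. No source used here says that the kit marked the strand, so reads from those bases cannot be assigned to one gene.

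The sequences upstream of 3 members are shown because they belong to the most abundant members, S100a6 and S100a11, and to S100a9, one of the nearly absent pair. Each is 230 bases long, from 250 to 21 bases before the RefSeq start, in GRCm38.p6. S100a11 lies at chr3:93520246-93520475 on the plus strand, S100a6 at chr3:90612644-90612873 on the plus strand and S100a9 at chr3:90695742-90695971 on the minus strand. Capitals mark matches, on either strand, to 3 motifs. The motif searched for the TATA box was TATAAA. For the site of the transcription factor AP-1 it was TGANTCA, where N is any base. For the GC box it was GGGCGG.
S100a11: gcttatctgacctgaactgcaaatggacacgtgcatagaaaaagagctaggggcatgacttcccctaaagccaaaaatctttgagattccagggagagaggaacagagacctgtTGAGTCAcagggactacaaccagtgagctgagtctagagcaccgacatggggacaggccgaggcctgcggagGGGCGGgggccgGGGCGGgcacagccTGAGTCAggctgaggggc
S100a6: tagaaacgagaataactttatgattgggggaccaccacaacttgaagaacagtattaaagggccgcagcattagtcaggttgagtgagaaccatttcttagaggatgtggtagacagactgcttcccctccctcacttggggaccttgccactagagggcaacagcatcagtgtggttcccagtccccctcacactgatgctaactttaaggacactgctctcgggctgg
S100a9: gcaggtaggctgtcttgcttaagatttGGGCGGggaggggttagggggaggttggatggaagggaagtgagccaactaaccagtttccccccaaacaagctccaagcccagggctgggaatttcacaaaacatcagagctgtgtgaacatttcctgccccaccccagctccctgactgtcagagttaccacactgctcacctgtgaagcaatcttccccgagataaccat

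The S100a11 stretch held 2 AP-1 and 2 GC-box matches, which do not overlap one another. The S100a6 stretch held none of the 3 motifs, and that of S100a9 held 1 GC box. The stretch of S100a8, the lowest member, is not shown because part of it is annotated as an exon of that gene, and it held 1 TATA-box match, 30 bases before the start. Over 32851 mouse promoter windows of the same length, 6.34% held an AP-1 match, 29.8% a GC-box match and 11.8% a TATA-box match. A match is a description of the letters, not evidence of a bound site.

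Levels per length showed a family dominated by S100a6 and S100a11, with the calprotectin genes at the bottom. S100a6, or calcyclin, a member often raised in proliferating cells, was at 3485, 3706 and 4953 TPM in PEEPA-P5 1, 2 and 3, against 3343, 2262 and 2496 TPM in vehicle 1, 2 and 3. Each PEEPA-P5 library was above each vehicle library, but PEEPA-P5 1 was close to vehicle 1, and PEEPA-P5 3 was the highest. S100a11, which binds annexin A1, was at 2881, 2820 and 3139 TPM with PEEPA-P5, against 2695, 2215 and 2041 TPM with vehicle. The groups did not overlap here either, and vehicle 1 was again the nearest vehicle library. Together these genes made up from 81.1% to 84.2% of the summed TPM of the 9 members with PEEPA-P5, and from 79.3% to 86.0% with vehicle.

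The middle of the range was taken by S100a1, S100a10, S100a14 and S100a16. S100a1, best known as a regulator of calcium cycling in heart and skeletal muscle, was at 515, 552 and 507 TPM in PEEPA-P5 1, 2 and 3, against 474, 446 and 328 TPM in vehicle 1, 2 and 3. S100a10, also called p11, binds annexin A2 without needing calcium, and was at 343, 355 and 475 TPM with PEEPA-P5, against 263, 345 and 127 TPM with vehicle. The S100a1 groups were apart, whereas vehicle 2 reached just above PEEPA-P5 1 for S100a10, and vehicle 3 was far below the others. On the CPM scale used in the test (counts scaled to a TMM-adjusted library total), the S100a10 groups did not overlap, at 137, 138 and 218 CPM with PEEPA-P5 against 100.2, 119 and 54.2 CPM with vehicle.

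S100a14, a member of epithelial cells whose human protein has lost calcium-coordinating residues in its second EF-hand, was at 225, 298 and 225 TPM in PEEPA-P5 1, 2 and 3. In vehicle 1, 2 and 3 it was at 180, 149 and 121 TPM, so the groups were apart and PEEPA-P5 2 was the highest library. S100a16, a broadly expressed member, was at 215, 220.2 and 226 TPM with PEEPA-P5, against 172, 156 and 108 TPM with vehicle. Its PEEPA-P5 libraries were close together, with 221 ± 5.30 TPM, while the vehicle libraries spread more widely, with 145 ± 33.4 TPM (SD, n = 3 each). S100a13, which takes part in the non-classical export of FGF1 and interleukin 1 alpha, was the lowest of these genes, at 82.4, 94.8 and 89.4 TPM with PEEPA-P5, against 68.6, 72.5 and 51.7 TPM with vehicle.

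**Figure D1:**
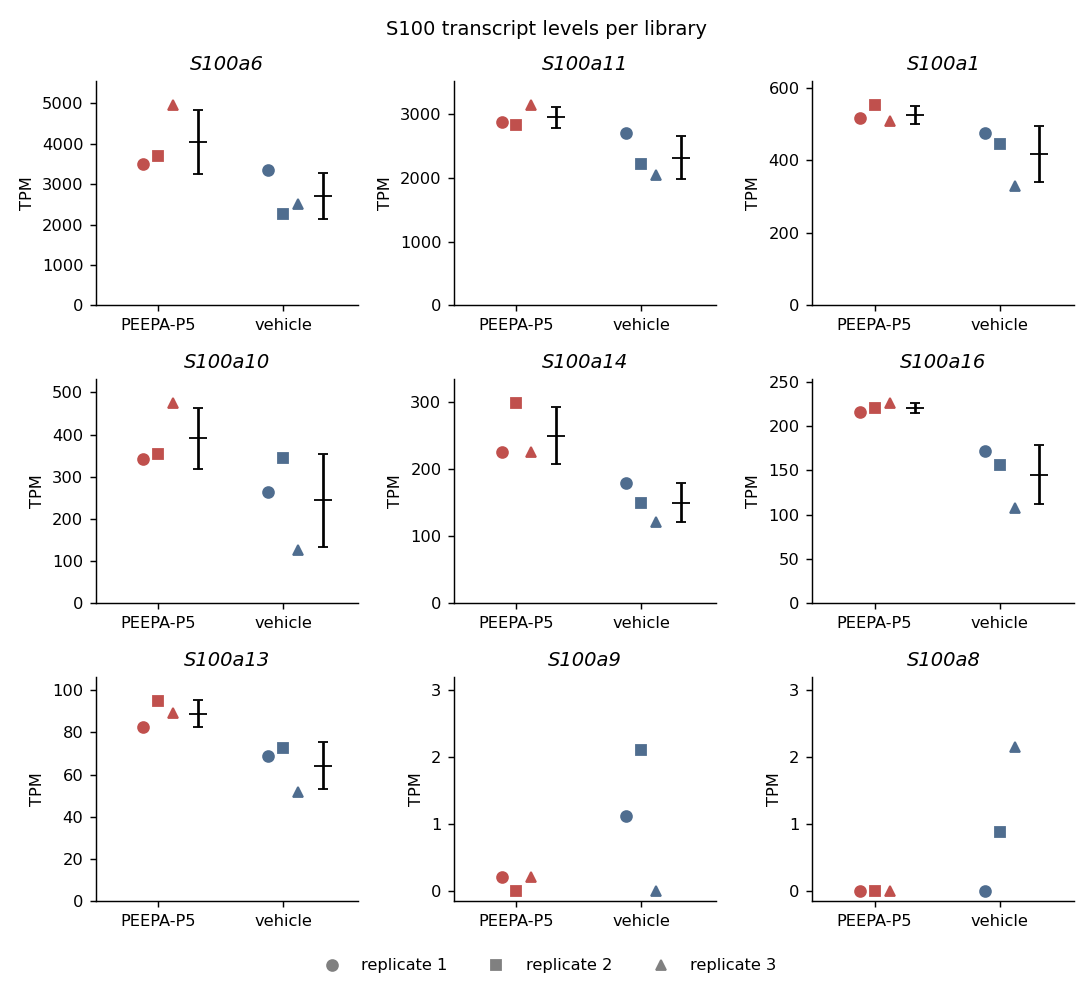
TPM of each S100 gene (y axes, linear, different for each gene) in the 3 PEEPA-P5 and 3 vehicle libraries; symbols give the replicate number, and bars the mean and SD where drawn. In S100a6, S100a11, S100a1, S100a14, S100a16 and S100a13 each PEEPA-P5 library lies above each vehicle library, S100a10 overlaps, and S100a9 and S100a8 stay at or below 2.15 TPM.

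With PEEPA-P5 the order by mean TPM was S100a6, S100a11, S100a1, S100a10, S100a14, S100a16 and S100a13. With vehicle it was the same. In the PEEPA-P5 libraries the ranges of neighbours in this order did not overlap except those of S100a14 and S100a16. In the vehicle libraries the ranges overlapped for S100a6 with S100a11, for S100a1 with S100a10, for S100a10 with S100a14 and for S100a14 with S100a16. Within each single vehicle library, however, S100a6 was above S100a11, S100a1 above S100a10 and S100a10 above S100a14. Only the order of S100a14 and S100a16 varied between vehicle libraries. The 9 members together took 0.775%, 0.805% and 0.962% of all TPM in PEEPA-P5 1, 2 and 3, against 0.720%, 0.565% and 0.528% in vehicle 1, 2 and 3.

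The calprotectin genes, the myeloid S100 pair, were at the limit of detection. S100a8 had 0 counts in all PEEPA-P5 libraries, against 0, 2 and 5 counts in vehicle 1, 2 and 3. A count of 0 allows up to 0.181, 0.177 and 0.182 CPM in PEEPA-P5 1, 2 and 3 (3 counts of the total). Over the group totals, 0 counts against 7, the exact 95% interval of the S100a8 ratio ran from 0 to 0.736. S100a9 had 1, 0 and 1 counts in PEEPA-P5 1, 2 and 3, against 5, 9 and 0 counts in vehicle 1, 2 and 3. The ratio of its group totals, 2 counts against 14, was 0.151 with an exact 95% interval of 0.0167 to 0.659. Both intervals cover counting error only, and the groups overlapped in both genes. Neither gene passed edgeR's filter on low counts, so neither was tested.

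The defining markers of neutrophils were equally scarce. Of 18 listed neutrophil markers 14 were in the table, none passed the filter, and 13 had fewer than 10 counts in every library. Ly6g, the standard surface marker of mouse neutrophils, had 0 counts in each PEEPA-P5 library and 1 count in 1 vehicle library. Csf3r, the G-CSF receptor, had 2, 3 and 1 counts with PEEPA-P5 and 6, 9 and 4 counts with vehicle. Il1r2, a decoy receptor for interleukin 1 and the highest of the list by mean TPM, had 3, 1 and 0 counts with PEEPA-P5 and 4, 9 and 3 counts with vehicle. Ltf, the only gene of the list to reach 10 counts in a library, did not share this direction. It had 3, 7 and 20 counts in PEEPA-P5 1, 2 and 3 and 1, 8 and 11 counts in vehicle 1, 2 and 3, with overlapping groups. The list summed to between 0.42 and 0.59 TPM with PEEPA-P5 and between 0.74 and 1.92 TPM with vehicle. The 14 macrophage markers, all present, summed to 32.7, 63.5 and 9.05 TPM in PEEPA-P5 1, 2 and 3, against 62.2, 72.1 and 31.1 TPM in vehicle 1, 2 and 3. Lyz2, the macrophage lysozyme gene, was their highest member, at 11.1, 22.3 and 1.95 TPM with PEEPA-P5 and 21.9, 28.1 and 12.1 TPM with vehicle. The part of these cells in the few S100a8 and S100a9 reads was not tested.

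**Figure D2:**
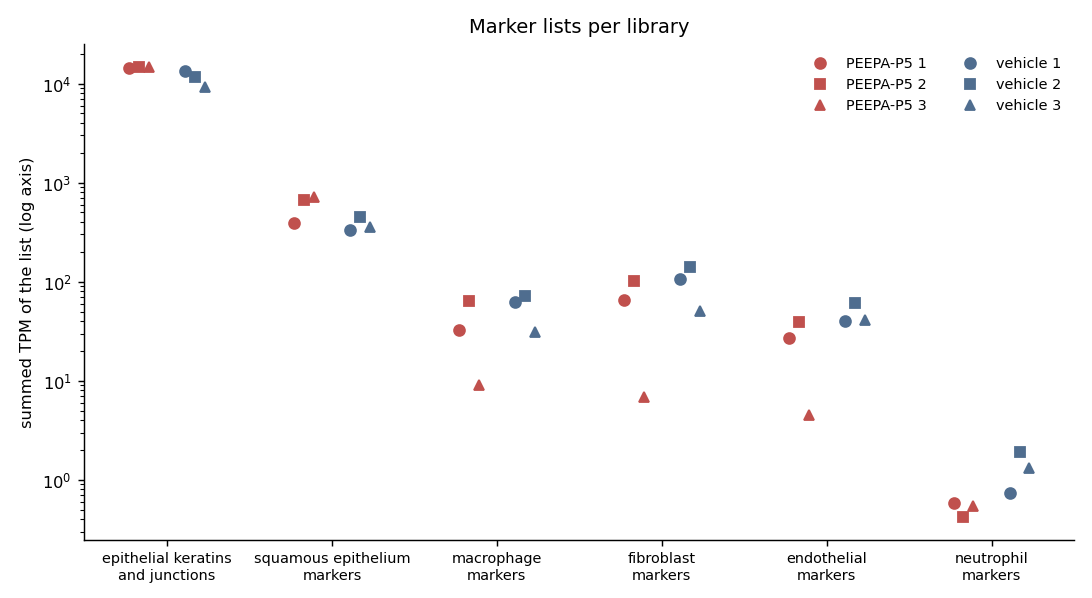
Summed TPM of 6 marker lists (y axis, logarithmic) in each library, PEEPA-P5 in red and vehicle in blue, with symbols for the replicate number. Neutrophil markers stay below 2 TPM in all libraries, and PEEPA-P5 3 is lowest for macrophage, fibroblast and endothelial markers. The sum of epithelial keratin and junction genes is higher in each PEEPA-P5 library than in each vehicle library.

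The 7 members that passed the filter had higher mean levels with PEEPA-P5, as did 49.4% of all genes tested, but none passed the threshold. In edgeR's quasi-likelihood test over 13071 genes the call rate was 0% for the whole table, and the adjusted p of each of the 7 members was 0.412. For 3 of them, S100a14, S100a13 and S100a16, DESeq2 gave an adjusted p under 0.05 (0.00188, 0.0309 and 0.0147), in a run that called 0.773% of the same genes. All 7 members had an unadjusted edgeR p under 0.05 and were higher, as were 5.92% of the genes tested. In CPM the groups of all 7 did not overlap, with PEEPA-P5 higher, as in 9.74% of all genes tested and in 20.0% of the 3353 genes of 50 CPM or more. Since this contrast was known when the members were chosen, nothing is read from these shares.

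The differences were moderate and of similar size. In CPM, S100a14 averaged 216 ± 27.1 with PEEPA-P5 and 120.4 ± 21.4 with vehicle (SD, n = 3 each), and its log2 difference was 0.84 (standard error 0.16). S100a10 had the largest difference but the widest error, at 0.85 (standard error 0.32). S100a16 differed by 0.71 (standard error 0.15), and S100a6 also by 0.71 (standard error 0.25). S100a13 differed by 0.60, S100a11 by 0.48 and S100a1 by 0.46, with standard errors of 0.12, 0.16 and 0.12. The median over the 7 tested members was 0.71 on the log2 scale, beside -0.005 over all tested genes. As the members were chosen with this contrast known, nothing is read from the gap between these medians.

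With both libraries numbered 3 left out, the difference of each member was smaller. The median over the 7 members was then 0.45, and S100a10 differed by 0.33 on the log2 scale, against 0.85 with all libraries. S100a6 differed by 0.45 without PEEPA-P5 3, by 0.46 without both libraries numbered 3, but by 0.72 without vehicle 3 alone. S100a14 differed by 0.78 without both, and by 0.75 without PEEPA-P5 2, so these libraries did not stand out for it. Since the CPM groups of all 7 members were apart, PEEPA-P5 had to be higher within every numbered pair, and only the amounts are informative. They were unequal. S100a14 was higher by 0.38, 1.17 and 0.99 log2 units in pairs 1, 2 and 3, and S100a6 by 0.13, 0.88 and 1.09. S100a10 was higher by 0.45, 0.22 and 2.01 log2 units. Pair 1 gave the smallest difference for each member except S100a10.

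**Figure D3:**
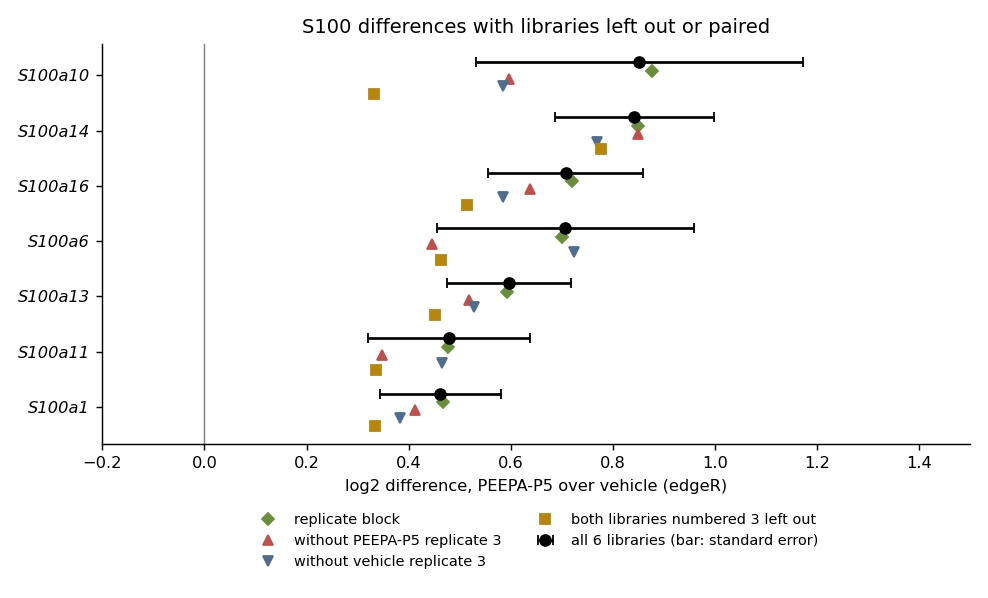
Log2 difference in CPM, PEEPA-P5 over vehicle, from edgeR (x axis) for the 7 tested S100 genes (rows), with all 6 libraries (black, bar: standard error), with the replicate number as a block, and with libraries numbered 3 left out. All values lie above 0, and S100a10 has the largest shift, to 0.33 without both libraries numbered 3.

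Keratin and junction genes of simple epithelium moved in the same direction. All 7 tested genes of their list, led by Krt19, were higher with PEEPA-P5. In CPM their groups did not overlap, as in 9.74% of all genes tested and in 20.0% of the 3353 genes of 50 CPM or more. Their median log2 difference was 0.39, and 0 of the 7 passed the edgeR threshold, as did 0% of all genes tested. Krt19 was at 7571, 7533 and 7814 TPM in PEEPA-P5 1, 2 and 3, against 7026, 5857 and 4694 TPM in vehicle 1, 2 and 3. The list's mean log2 CPM lay 0.17, 0.22 and 0.42 above the mean of the 6 libraries in PEEPA-P5 1, 2 and 3, and at -0.04, -0.21 and -0.56 in vehicle 1, 2 and 3. The order of the libraries in this mean was the same as for S100a1, S100a13 and S100a16. Other lists of stomach epithelium differed in direction. Of 12 gastric pit cell genes, led by Tff1, 11 were higher with PEEPA-P5, with a median log2 difference of 0.32. In CPM 9 of them were apart and higher, beside the 9.74% and 20.0% above. All 7 oxyntic genes were lower, with a median of -2.67. Of 8 antral and gland genes, led by Tff2, 4 were higher and 4 lower.

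The S100 values were therefore also set against this epithelial mean in the same library, a comparison chosen after the data had been seen. Relative to it, S100a14 remained 0.30 log2 units higher with PEEPA-P5 and S100a16 0.18, and the groups of both were still apart. For S100a14 the gap was narrow, with PEEPA-P5 3 at 0.008 and vehicle 3 at -0.005 log2 units from the gene's mean. S100a10 differed by 0.35, S100a6 by 0.16 and S100a13 by 0.05, with overlapping groups. S100a1 and S100a11 were at -0.08 and -0.07, also with overlapping groups. The epithelial mean was raised most by Krt7 and Cldn7, with log2 differences of 1.09 and 0.92, above those of all tested members. Its other genes ranged from 0.21 for Krt18 to 0.44 for Krt19. Among 3347 genes of 50 CPM or more, 0.239% were apart and higher with PEEPA-P5 on this relative scale, from which nothing is read for members chosen on the same contrast. How far the amount of epithelial RNA accounts for the S100 differences was not tested, and no mean without Krt7 and Cldn7 was tried.

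**Figure D4:**
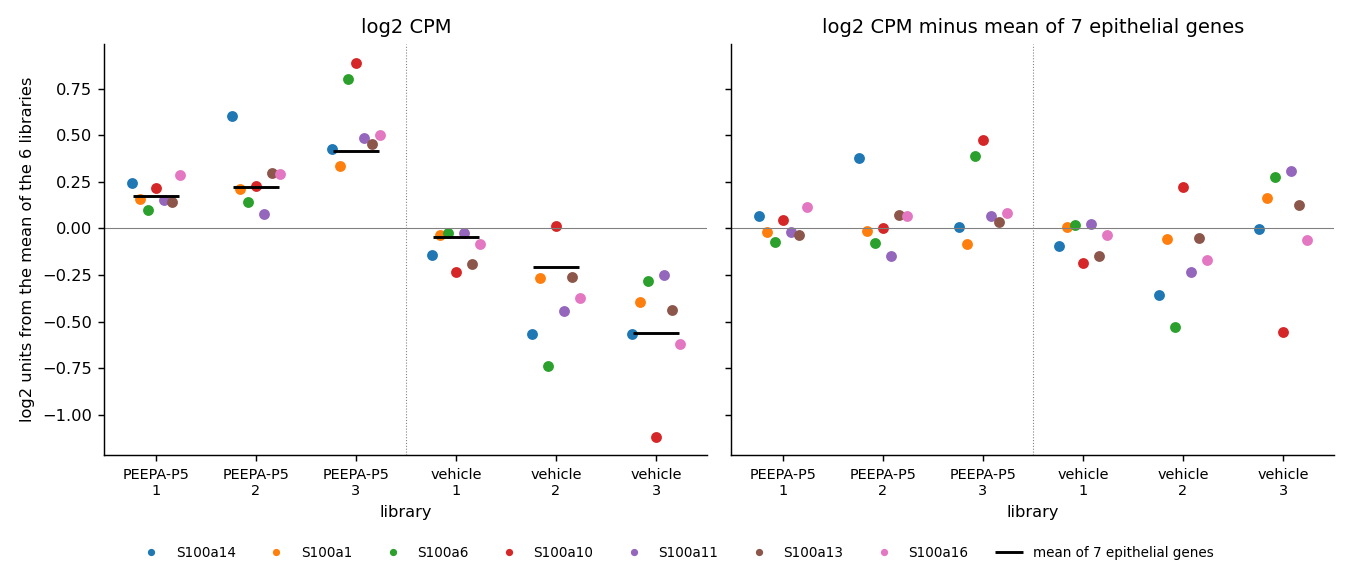
Log2 CPM of the 7 tested S100 genes in each library, as the distance from each gene's mean over the 6 libraries (left), and the same after subtracting the mean of 7 epithelial keratin and junction genes of that library (right). Horizontal bars on the left mark that epithelial mean. On the left every gene is higher in each PEEPA-P5 library than in each vehicle library, and on the right the groups of S100a14 and S100a16 remain apart.

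Genes of squamous epithelium, which lines the mouse forestomach, were examined because S100a14 is also known from stratified epithelia. Of 19 listed genes 13 were in the table, and 8 of these had fewer than 10 counts in every library. Krt5 and Krt14, the basal squamous keratins, had at most 1 count in any library. Krt13, a keratin of the upper squamous layers, had 148, 188 and 57 counts in PEEPA-P5 1, 2 and 3, against 62, 41 and 22 counts in vehicle 1, 2 and 3. Its log2 difference was 1.72 (standard error 0.49), and that of Krt4, its usual partner, 1.38 (standard error 0.53), both above the value of any of the 7 tested S100 members. These 4 keratins were named after their values were seen. Sprr1a, a cornified-envelope precursor also induced in stressed simple epithelium, was the highest member by far, at 384, 662 and 707 TPM in PEEPA-P5 1, 2 and 3, against 327, 442 and 356 TPM in vehicle 1, 2 and 3. All 5 tested members were higher with PEEPA-P5, with a median log2 difference of 0.77. In edgeR 0 passed the threshold, as did 0% of all genes tested. In CPM the groups of 4 of the 5, Krt13, Krt4, Krt10 and Sprr1a, did not overlap, with PEEPA-P5 higher, as in 9.74% of all genes tested. Of these 4, Krt4 had only 6 to 36 counts per library, and Krt10 had an unadjusted edgeR p of 0.16. The list's sum was 396, 675 and 714 TPM with PEEPA-P5 and 333, 446 and 360 TPM with vehicle, so this sum, nearly all of it Sprr1a, overlapped between groups. The part of squamous cells in the S100 differences was not tested.

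Further S100 genes went in both directions. The members were chosen with this contrast known, so nothing is read from how the further genes differ from them. Of 11 listed, 9 were in the table and 5 were tested. Of these 3 were higher and 2 lower. In edgeR 0 passed the threshold, as did 0% of all genes tested, and DESeq2 called 1, S100g. S100g, the calcium carrier calbindin-D9k, was at 143, 99.5 and 84.9 TPM in PEEPA-P5 1, 2 and 3, against 52.9, 57.5 and 31.3 TPM in vehicle 1, 2 and 3, with no overlap. Its edgeR log2 difference was 1.34 (standard error 0.23), above that of each tested member. Its DESeq2 adjusted p was 0.00078, in the run that called 0.773% of the genes tested. S100a3, a member known from hair cuticle, was at 3.11, 2.54 and 2.2 TPM with PEEPA-P5, against 1.39, 1.61 and 0.42 TPM with vehicle, also with no overlap. S100a4, a marker of fibroblasts and some leukocytes, was at 3.19, 5.79 and 0.95 TPM with PEEPA-P5, against 4.70, 4.85 and 3.55 TPM with vehicle. It overlapped between groups and was lowest in PEEPA-P5 3, the library lowest in fibroblast markers. S100a3 and S100a4 were both low, with 3 to 22 and 4 to 25 counts per library. S100a7l2 overlapped as well, at 15.5 ± 4.90 TPM with PEEPA-P5 and 18.2 ± 3.90 TPM with vehicle (SD, n = 3 each). S100z and S100a5 averaged between 1 and 2 TPM in both groups, from at most 7 counts in any library. The other 3, S100a2, S100a7a and S100b, averaged under 1 TPM in both groups.

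Of the listed binding partners and receptors of S100 proteins, 17 of 18 were in the table and 15 were tested. Of these 10 were higher and 5 lower with PEEPA-P5, where 49.4% of all genes tested were higher, and the median log2 difference was 0.16. In edgeR 0 passed the threshold, as did 0% of all genes tested. Anxa2, the partner of S100a10, was at 603, 664 and 631 TPM in PEEPA-P5 1, 2 and 3, against 562, 547 and 305 TPM in vehicle 1, 2 and 3, and its log2 difference was 0.55 (standard error 0.19). Its groups were apart, with vehicle 3 the lowest library, as for S100a10. Anxa1, the partner of S100a11, overlapped, at 60.5, 70.2 and 51.9 TPM with PEEPA-P5 and 62.0, 72.5 and 39.0 TPM with vehicle.

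The receptors for released S100 proteins differed widely in level. Bsg, which encodes basigin, a receptor for S100a9, was the highest gene of the list, at 983, 898 and 843 TPM in PEEPA-P5 1, 2 and 3, against 926, 842 and 682 TPM in vehicle 1, 2 and 3, and its groups overlapped. It was named after its values were seen. Ager, which encodes RAGE, was at 0.83 ± 0.20 TPM with PEEPA-P5 and 0.86 ± 0.31 TPM with vehicle (SD, n = 3 each). Tlr4, a receptor for calprotectin, was at 6.40 ± 0.99 TPM with PEEPA-P5 and 6.32 ± 1.23 TPM with vehicle. Ager and Tlr4 thus stood far below Bsg and also overlapped between groups. The 4 further genes of the list with the largest differences were all lower with PEEPA-P5. Cd36, a fatty acid and scavenger receptor, was at 0.53, 2 and 0.19 TPM with PEEPA-P5, against 2.5, 12.01 and 16.3 TPM with vehicle, and its groups were apart. Tgm2, a transglutaminase, had a log2 difference of -0.95, Fgf1, which S100a13 helps to export, -0.76, and Anxa6 -0.68. These genes were lowest in PEEPA-P5 3, where the stromal markers were lowest too, and the part of stroma was not tested.

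Likeness of pattern was measured as the root mean square difference of log2 CPM, each gene centred on its mean over the 6 libraries, among 8307 genes of at least 10 CPM. The gene nearest to S100a14 was Crip1, a small LIM-domain protein gene, at a distance of 0.10, averaging, in CPM, 203 ± 14.5 with PEEPA-P5 and 112 ± 27.2 with vehicle (SD, n = 3 each). Next came Gch1, which makes the first step to tetrahydrobiopterin, at 0.13, Cysrt1 at 0.13, the Ly6 family gene Ly6g6c at 0.15 and the keratin gene Krt79 at 0.15. Among the nearest to S100a11 were Tmbim1 at 0.05, Mgst2 at 0.06, Mad2l1bp at 0.06 and Snx7 at 0.06. Among the members themselves the closest were the neighbours S100a1 and S100a13, at 0.09, whose annotated starts overlap. S100a16 and S100a13 were at 0.12. S100a6 and S100a10 were the farthest apart, at 0.47. These distances rest on 6 libraries and include the difference between groups.

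Counts of some members could be uncertain for a technical reason. For S100a1 and S100a13 it is the overlap of their RefSeq starts on opposite strands. Of the 31-base stretches of S100a11's GENCODE transcripts, 48.9% also occur in transcripts of other genes, most of them in the processed pseudogene Gm12854, which is not among the rows used here. The deposited counts of every member, S100a1, S100a13 and S100a11 included, were whole numbers in all 6 libraries. S100a10 shared 0.424% of its stretches and the other 7 members shared none on either strand. S100a1 and S100a13 thus have no such stretch in common in the GENCODE transcripts searched, unlike their RefSeq spans.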

How the data were processed

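The deposited table lists 17256 genes and, per the file headers, holds expected counts, FPKM and TPM of each library. Per the submitters' processing notes, Bowtie2 2.2.5, RSEM 1.2.12 and build mm9 were used, with roles and settings not given in the sources used here. The deposited expected counts are estimated, not normalized, and 9.82% were not whole, so they were rounded. TPM, as deposited by the authors, served for levels, and the FPKM values the authors deposited were not used.

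The test was that of edgeR 4.0.16 under R 4.3.3 (robust quasi-likelihood test, TMM factors, default expression filter, Benjamini-Hochberg adjustment at 0.05), without covariates; standard errors come from its F statistics. Fits were tested on simulated data. Of the alternatives, DESeq2 1.42.0 and limma 3.58.1 used the same filter. The members, gene lists and rules for naming genes were chosen with earlier results of these data known. The named genes are the members, further S100 genes with a mean of at least 1 TPM in a group, 4 fixed partners and the 4 others with the largest differences, the highest gene of each marker list described, and the 5 nearest genes for S100a14 and S100a11, of which 1 is not reported here. S100a8 was too low for that search. Defining markers and other genes named beside them were chosen after their values were seen.

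Both groups carry the replicate numbers 1 to 3. Over tested genes, libraries of the same number deviated together, with correlations of 0.24, 0.35 and 0.24 for 1, 2 and 3. Those of unlike number ranged from -0.35 to 0.18, the highest being PEEPA-P5 1 with vehicle 2. The numbers were thus taken only as possible pairs, from the data and not the labels. No 2 libraries were duplicates (chi-square per degree of freedom at least 13.3). RefSeq and GENCODE M21 sequences are of GRCm38, a later build than that of the files.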

Additional observations from a re-analysis of the deposited data

How the results depend on the processing

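Under 17 alternatives each of the 7 tested members stayed higher with PEEPA-P5. DESeq2 called 3 of them and 101 genes in the table, 39 higher and 62 lower, where edgeR called 0 and 0, with 1576 at an unadjusted p under 0.05. With each library left out in turn, 0 members were called every time and from 0 to 1 genes in the table, the 1 without vehicle 1. The fit with the replicate number as a block called 0 members and 0 genes, so the pairing changed no call. Log2 differences ranged over the alternatives from 0.74 to 1.00 for S100a14, 0.33 to 1.09 for S100a10, 0.45 to 0.88 for S100a6, 0.52 to 0.86 for S100a16, 0.45 to 0.67 for S100a13, 0.34 to 0.60 for S100a11 and 0.33 to 0.57 for S100a1. On log2(TPM + 0.1) the median of all genes shifted to -0.10 and that of the members was 0.59, and again nothing is read from the gap. S100a8 and S100a9, at single counts, allow at this depth only the intervals given for their group totals.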
